A study of Rattus norvegicus with 16 samples.

Results

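The metallothioneins Mt1 and Mt2A were followed in the hearts of male Wistar rats given doxorubicin (DOX), an anthracycline used against cancers that can injure the heart. Mt1 was read under the identifier ENSRNOG00000038047 and Mt2A under ENSRNOG00000043098, both were found, and they are 2 of the 32545 Ensembl genes counted. These pairings of name and identifier were set beforehand and were not checked here. RNAseq libraries were available for 10 saline control and 6 DOX high hearts, 1 library per rat. Each DOX high rat had been injected into the vein once a week for 5 weeks with DOX at 3 mg per kg, 15 mg per kg in total. The saline rats had received sterile saline by the same route, with 5 weekly injections given in the sample labels and 6 in the methods of the study. All rats were 6 to 8 weeks old when the study began, and hearts were taken at week 6. The library is made from a piece of whole heart, so a change in the RNA per cell and a change in the number of cells of a type cannot be told apart. The files list genes by identifier without names, so the heart markers and the markers of other cell types were not analysed here.

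Metallothioneins are small proteins, rich in cysteine, that bind zinc and copper and can scavenge reactive oxygen species. Their genes are among the most readily induced in mammalian cells: zinc activates the transcription factor MTF1, which binds metal response elements in their promoters, and glucocorticoids, cytokines and oxidative stress can also raise them. In the heart they are known as protective proteins, and mice made to overproduce metallothionein in heart muscle have been reported to tolerate DOX better. Mt1 and Mt2A lie next to each other in the genome, in a cluster with Mt3 and Mt4, and are usually described as being induced together.

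The promoters of both genes were read from RefSeq, where both were matched by symbol, because metal response elements are the best known control sites of these genes. They are given as the 250 bases before the annotated transcript start, 5′ to 3′ on the strand of the gene, with matches to the core of the metal response element in capitals (TGCACNC or TGCGCNC, on either strand). On the GRCr8 assembly the Mt1 stretch is chr19:10832976-10833225 and the Mt2A stretch is chr19:10838709-10838958, both on the minus strand.
Mt1: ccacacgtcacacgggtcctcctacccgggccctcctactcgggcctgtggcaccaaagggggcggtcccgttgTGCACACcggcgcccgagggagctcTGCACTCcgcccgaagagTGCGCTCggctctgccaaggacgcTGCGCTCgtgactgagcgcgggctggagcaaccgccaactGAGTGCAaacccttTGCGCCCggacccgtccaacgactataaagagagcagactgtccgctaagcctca
Mt2A: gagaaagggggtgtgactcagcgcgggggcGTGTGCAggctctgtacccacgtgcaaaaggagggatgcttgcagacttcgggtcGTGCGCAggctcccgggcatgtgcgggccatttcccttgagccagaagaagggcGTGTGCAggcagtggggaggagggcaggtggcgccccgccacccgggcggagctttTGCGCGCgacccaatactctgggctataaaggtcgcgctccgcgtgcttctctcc
The Mt1 stretch held 6 matches and the Mt2A stretch 4, none of them overlapping another, where 20.6% of 33469 promoter stretches of the same length held at least 1. At least as many matches as in Mt1 were found in 0.0269% of these promoters, and at least as many as in Mt2A in 0.266%. The matches fell at different distances from the start, except for a TGCGCNC match from 55 to 49 bases before the start that both genes had. A TATA box (TATAAA, searched on both strands) began 32 bases before the start of Mt1 and 31 bases before that of Mt2A, and 12.9% of the promoters held one. The core of the antioxidant response element (TGACNNNGC), through which Nrf2 acts, had 1 match in each stretch, as it had at least 1 in 10.1% of promoters. The STAT site (TTCNNNGAA) and the full palindromic glucocorticoid response element, each also searched on both strands, had no match in these stretches, and 7.67% and 0.0120% of promoters held one. All of these are matches of letters and not measured binding sites.

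**Figure D1:**
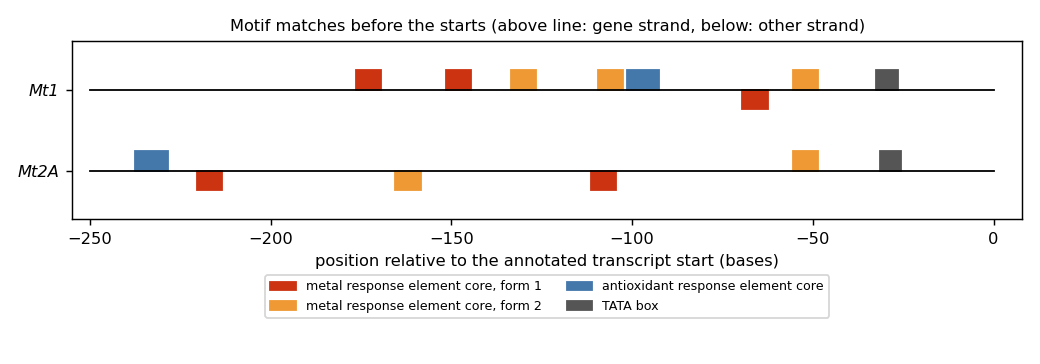
Positions of the motif matches in the 250 bases before the annotated transcript starts of Mt1 and Mt2A, in bases relative to the start, with matches on the gene strand above each line and those on the other strand below. Mt1 holds 6 metal response element cores and Mt2A 4, and both have 1 of them from 55 to 49 bases before the start.

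Between 13784896 and 18025615 fragments were counted per library, and 13607 genes passed the expression filter of edgeR, both metallothioneins among them. Levels are given as CPM, the fragment count of a gene relative to its library total, scaled with TMM factors that correct for differences in library composition. The library of DOX high rat 32 had the largest factor, 1.36, where the other 15 lay between 0.885 and 1.20. How many genes differed between the groups depended on single libraries: 851 genes passed an adjusted p under 0.05 with all hearts, and this became 345 when DOX high rat 38 was left out, 402 for saline rat 7, 434 for saline rat 8, 436 for DOX high rat 33, 479 for DOX high rat 39, 517 for saline rat 34, 524 for saline rat 36 and 1762 for saline rat 37. Saline rat 37 was also the one saline heart with a Mt2A level in the DOX high range. Whether its library carries the right label cannot be told from the files, and what the saline values below show with and without it depends on that. All DOX high rats carried numbers from 30 to 39, as did 4 of the saline rats (34 to 37), whereas the other 6 saline rats were numbered 5 to 10. The library names also ran in separate series for saline and DOX high hearts, within rats 30 to 39 too. The median fragment total was 1.48e+07 in saline and 1.74e+07 in DOX high libraries. What part either has in the group difference was not tested.

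Over all hearts Mt2A was higher in the DOX high group, by 5.99-fold, and passed the test, whereas Mt1 did not. The call was lost within rats 30 to 39 alone (edgeR adjusted p = 0.189) and when the number block was added to the fit (edgeR adjusted p = 0.136). In the saline hearts Mt2A ranged from 0.757 CPM in rat 34 to 12.4 CPM in rat 37, with a median of 2.85 CPM. In the DOX high hearts it ranged from 9.90 CPM in rat 32 to 37.8 CPM in rat 33, with a median of 21.5 CPM. All 6 DOX high hearts lay above 9 of the 10 saline hearts, and saline rat 37 lay above DOX high rat 32 and below the other 5. The means were 3.76 ± 3.19 CPM (SD, n = 10) and 22.8 ± 9.58 CPM (SD, n = 6). On the log2 scale the fold was 2.58 with a standard error of 0.41 (edgeR quasi-likelihood test, adjusted p = 0.00407 by Benjamini-Hochberg over all genes tested), with an approximate 95% interval of the fold from 3.44 to 10.4. In this comparison 6.25% of all genes passed the threshold in either direction and 4.01% passed it as higher in DOX high hearts. A single-gene exact permutation test over the hearts gave p = 0.000250 (two-sided) for a difference of 2.75 in mean log2 CPM.

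In the fit over all hearts Mt2A was among the genes with the largest rise. Of the 546 genes that were higher in DOX high hearts it had the 36th largest log2 fold change and the 18th smallest p. Its place among all genes by level moved as well: in TPM, which also divides by gene length, 64.3% of the genes tested had a lower mean in saline hearts and 92.3% in DOX high hearts. The corresponding shares for Mt1 were 48.8% and 57.8%.

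**Figure D2:**
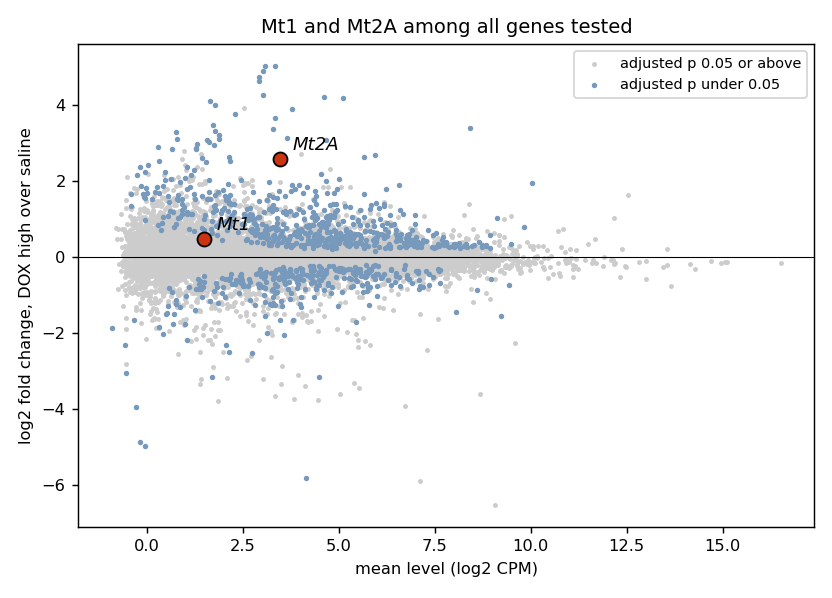
Log2 fold change of DOX high over saline hearts against the mean level in log2 CPM for all genes tested by edgeR, with genes past an adjusted p of 0.05 in blue and the metallothioneins in red. Mt2A lies at a log2 fold change of 2.58, with 0.287% of the genes above it, and Mt1 lies at 0.47 among genes that did not pass.

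Mt1 did not pass the test. It ranged in the saline hearts from 0.898 CPM in rat 6 to 4.02 CPM in rat 9, with a median of 2.21 CPM, and in the DOX high hearts from 1.81 CPM in rat 32 to 5.81 CPM in rat 33, with a median of 2.93 CPM. In CPM the groups overlapped broadly, with 8 of the 10 saline hearts above the lowest DOX high heart and 5 of the 6 DOX high hearts below the highest saline heart. The extent depended on the scaling: in TPM 3 of the 10 saline hearts lay above the lowest DOX high heart, and again 5 of the 6 DOX high hearts below the highest saline heart. The means were 2.33 ± 0.899 CPM (SD, n = 10) and 3.23 ± 1.37 CPM (SD, n = 6), and the fold on the log2 scale was 0.47 with a standard error of 0.28 (edgeR quasi-likelihood test, adjusted p = 0.322). The fold was thus 1.39, with an approximate 95% interval from 0.946 to 2.04. The unadjusted p was 0.112, and the exact permutation test over the hearts gave p = 0.133 (two-sided). In TPM, which is not scaled by TMM, 6 of 6 DOX high hearts lay above the saline median, and limma on log2(TPM + 1) gave Mt1 an unadjusted p of 0.0187 and an adjusted p of 0.206. Without DOX high rat 33, which had the highest level of both genes, the log2 fold change of Mt1 was 0.23.

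Counting error was about the same for the 2 members in saline hearts and larger for Mt1 in DOX high hearts. The standard error of the log2 fold change was still smaller for Mt1 (0.28) than for Mt2A (0.41). Mt1 rested on 17 to 53 fragments per saline heart and 43 to 85 per DOX high heart, and Mt2A on 10 to 211 and 235 to 553. For the lowest value, the 10 Mt2A fragments of saline rat 34, the exact 95% Poisson interval ran from 0.363 to 1.39 CPM, below the value of each other saline heart. Such intervals cover counting error only. The coefficient of variation between hearts was above that from counting in each group. For Mt1 it was 38.7% among saline and 42.2% among DOX high hearts, where counting gives 18.1% and 13.9%. For Mt2A it was 84.9% among saline hearts, 37.2% without rat 37, and 42.1% among DOX high hearts, where counting gives 17.2%, 17.9% and 5.34%. RefSeq lists 4 pseudogenes named after Mt1 (Mt1-ps1, Mt1-ps3, Mt1-ps4 and Mt1m) and none named after Mt2A. The counting left out fragments that map to more than one place, so the level of Mt1 is uncertain where its reads match such a copy, and how many were left out was not tested.

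The 2 members differed in their response. The ratio of their fragments within a library does not depend on how libraries are scaled, and the gene lengths implied by the count and TPM values were nearly the same (Mt1 1.02 times Mt2A). Saline hearts held between 0.323 (rat 34) and 5.86 (rat 37) Mt2A fragments per Mt1 fragment, with a median of 1.27. DOX high hearts held between 5.47 (rat 32) and 10.7 (rat 38), with a median of 6.83. Among saline hearts rat 37 alone reached into the DOX high range, above DOX high rats 31 and 32, and the next saline heart was rat 6 at 4.65. The mean of log2 Mt1 over Mt2A was -0.47 ± 1.26 (SD, n = 10) in saline and -2.79 ± 0.35 (SD, n = 6) in DOX high hearts, a difference of -2.32 (p = 0.00150 by a two-sided exact permutation test, and 0.00450 after Benjamini-Hochberg adjustment for 3 tests of the ratio). Within rats 30 to 39 the difference was -2.23 (p = 0.0143, two-sided exact permutation test), and over the hearts without rat 37 it was -2.55 (exact permutation p = 0.000599). The ratio moved with the TMM factor among saline hearts (Pearson's r of the log2 ratio -0.73, permutation p = 0.0178, Spearman's rho -0.58, permutation p = 0.0892), although TMM scaling cancels from it. This relation did not pass after adjustment for 6 relations of the members with the factor (adjusted p = 0.107 and 0.350), r was -0.66 without the 2 saline hearts with the most distant factors (rats 6 and 36), and its part in the group difference was not tested. Among DOX high hearts r was 0.40 (exact permutation p = 0.353).

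Per length, the order of the members varied between saline hearts, with 0.328 to 5.97 times as much Mt2A as Mt1 in TPM. Mt1 had 7.66 ± 2.27 TPM (SD, n = 10) and Mt2A 13.9 ± 13.0 TPM (SD, n = 10), or 10.1 ± 5.23 TPM (SD, n = 9) without rat 37. Mt2A was the higher of the pair in 7 of the 10 saline hearts, and the mean log2 ratio of 0.50 was not distinguished from 0 (two-sided exact sign-flip permutation test within hearts, p = 0.244, adjusted p = 0.244). In DOX high hearts Mt1 had 11.2 ± 3.82 TPM and Mt2A 79.4 ± 27.0 TPM (SD, n = 6), and Mt2A was the higher in 6 of 6. There the mean log2 ratio was 2.82 (exact sign-flip permutation test, p = 0.0313, the smallest it can give with 6 hearts, adjusted p = 0.0469). Summed TPM of both genes ran from 9.76 to 56.3 in saline hearts, or to 24.6 without rat 37, and from 58.8 to 143 in DOX high hearts. In summed CPM the groups overlapped, with saline rat 37 at 14.5 and DOX high rat 32 at 11.7. In order of mean TPM, Mt1 in saline was lowest, followed by Mt1 in DOX high, Mt2A in saline and Mt2A in DOX high hearts, and the ranges of the lower 3 overlapped. The order of the middle pair rested on rat 37: without it Mt2A in saline (10.1 TPM) was below Mt1 in DOX high hearts (11.2 TPM), as it was by the medians of all hearts (8.67 against 9.93 TPM).

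**Figure D3:**
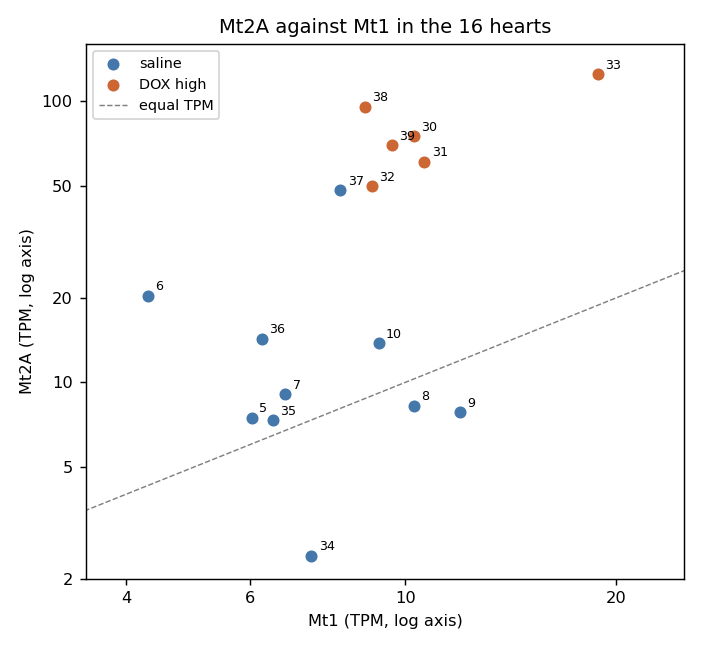
TPM of Mt2A against TPM of Mt1 on log axes in the 16 hearts, numbered by rat, with a dashed line where the TPM values are equal. The DOX high hearts lie between 49.9 and 125 TPM of Mt2A, far above the line, and saline rat 37 lies beside DOX high rat 32 at 48.2 TPM.

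Saline rat 37 lay apart from the other saline hearts in Mt2A. Its Mt2A level of 12.4 CPM was 4.65 times the median of the other saline hearts, the next highest of which had 4.18 CPM (rat 6), and in TPM it was 5.84 times their median. Its Mt1 level was 0.922 times the median of the others in CPM and 1.20 times in TPM, and its 2.12 CPM lay within the range of both groups. Whether it overlapped the DOX high group in Mt2A depended on the scaling. In TMM-scaled CPM it lay above DOX high rat 32 (12.4 against 9.90), and in TPM below it (48.2 against 49.9), so that in TPM the groups did not overlap. Groups did not overlap with DOX high higher in 0.595% of the genes tested in CPM and in 0.257% in TPM. Without rat 37 the log2 fold change of Mt2A was 3.01 (standard error 0.30, edgeR adjusted p = 2.06e-05, 13% of genes passing), and without both rat 37 and rat 32 it was 3.17 (edgeR adjusted p = 8.65e-06, again 13% of genes). These were the highest saline and the lowest DOX high heart in Mt2A, so leaving them out raises its log2 fold change by construction. Leaving out DOX high rat 38 gave 2.51 (edgeR adjusted p = 0.0145). In the fits without rat 37 and without both rats, that of Mt1 was 0.46 and 0.59 (edgeR adjusted p = 0.337 and 0.211).

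The rise of Mt2A no longer passed when only rats with like numbers were compared. Within rats 30 to 39, 4 saline and 6 DOX high, the log2 fold change was 2.27 (standard error 0.65, unadjusted p = 0.00529, edgeR adjusted p = 0.189), and 0 of 13730 genes (0%) passed, with 1891 at an unadjusted p under 0.05. The exact permutation test of this single gene gave p = 0.00952 (two-sided) there. With the number block as a covariate the log2 fold change was 2.28 (standard error 0.56, edgeR adjusted p = 0.136), and 2 of 14008 genes passed, or 0.0143%. Leaving out rat 37 as well gave 3.43 (edgeR adjusted p = 0.0167) within rats 30 to 39 and 3.44 (edgeR adjusted p = 0.00204) with the block, where 2.2% and 2.41% of genes passed. Both of these fits were chosen after seeing the data, and rat 37 was singled out by its high Mt2A level. Leaving it out raises the fold of Mt2A by construction, so these passes do not test the rise. In the fits with all hearts that changed the method, Mt2A passed each time: with DESeq2, which called 11.8% of genes, with upper-quartile scaling (6.37%), with no filter (3.62%), with a minimum of 10 fragments per library (6.76%) and with limma on log2(TPM + 1) (1.87%) and log2(TPM + 0.1) (2.09%). It also passed with each heart left out in turn, where the share of genes called was lowest at 2.52% (DOX high rat 38 left out) and highest at 13% (saline rat 37 left out). Mt1 passed in none of these. Its log2 fold change was 0.72 within rats 30 to 39 and 0.72 with the block (edgeR adjusted p = 0.344 and 0.399, unadjusted p = 0.0421 and 0.0656). The exact permutation test of Mt1 alone within rats 30 to 39 gave p = 0.0619 (two-sided).

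**Figure D4:**
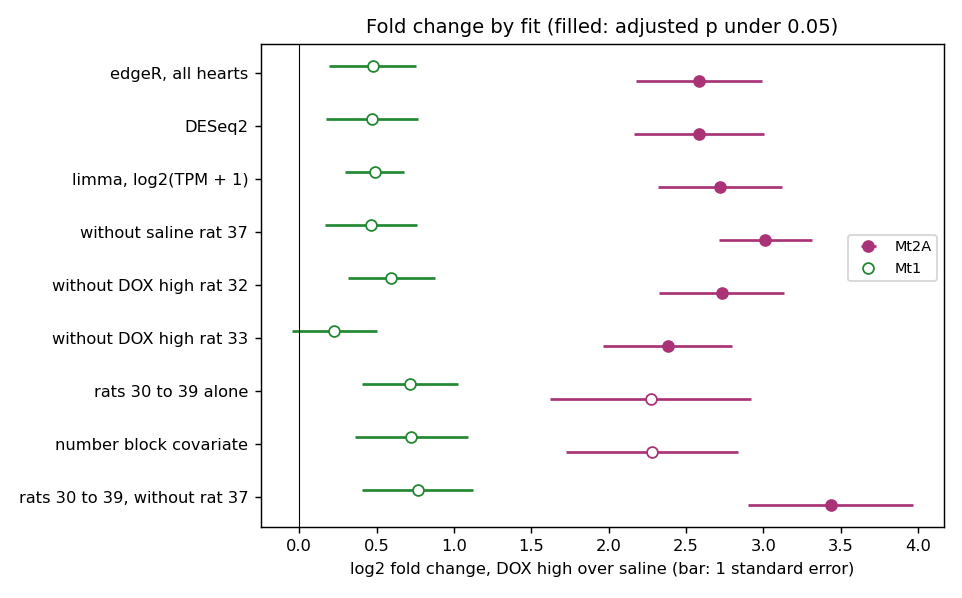
Log2 fold change of DOX high over saline hearts for Mt1 and Mt2A in 9 fits, with bars of 1 standard error and filled points where the adjusted p was under 0.05. Mt2A lies between 2.27 and 3.43 in the 9 fits drawn, with open points for rats 30 to 39 alone and for the number block covariate, and Mt1 lies between 0.23 and 0.76 and passes in none. The fits without rat 37 leave out the saline heart with the highest Mt2A level, which raises the fold of Mt2A by construction.

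Among saline rats alone, numbers 34 to 37 were compared with 5 to 10. Mt1 was at 1.95 ± 0.377 CPM (SD, n = 4) against 2.57 ± 1.09 CPM (SD, n = 6), a log2 fold change of -0.39 (edgeR adjusted p = 0.918). Mt2A was at 4.64 ± 5.28 CPM against 3.18 ± 0.766 CPM, a log2 fold change of 0.56 (edgeR adjusted p = 0.918) that became -0.62 without rat 37 (edgeR adjusted p = 0.999). In this comparison 0 of 13413 genes (0%) passed with edgeR and 591 had an unadjusted p under 0.05, and DESeq2 called 22 genes (0.166%), neither metallothionein among them.

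Within neither group was a relation between the members detectable from heart to heart. On log2 CPM, Pearson's r of Mt1 and Mt2A was -0.18 among the 10 saline hearts (permutation p = 0.612, Spearman's rho -0.24, permutation p = 0.516) and -0.07 without the 2 hearts farthest from the median of Mt1. Among the 6 DOX high hearts r was 0.84 (exact permutation p = 0.0583, rho 0.60, exact permutation p = 0.242), which rested on rats 32 and 33, the lowest and highest in both genes, since r was -0.32 without the 2 farthest hearts. With the group means removed r was 0.09 over 16 hearts (permutation p = 0.748, rho 0.10, p = 0.714), and 0.08 without the 2 farthest. Over all hearts, where r also holds the group difference, it was 0.38 (permutation p = 0.146, rho 0.30, permutation p = 0.263). Within rats 30 to 39, both groups together, r was 0.63 (permutation p = 0.0511) and rho 0.76 (permutation p = 0.0146, unadjusted), which holds the group difference too. Adjusted over the first 4 relations, p was at least 0.233 for r and at least 0.525 for rho.

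Other genes followed each member more closely than the members followed each other. Ordered by Pearson's r of log2 CPM over the 16 hearts, Mt1 stood at place 2631 of 13606 for likeness to Mt2A, and Mt2A at place 2420 for likeness to Mt1. The 5 genes most like Mt2A had r between 0.91 and 0.94, and between 0.71 and 0.85 with group means removed. They were led by ENSRNOG00000018533 (r = 0.94, and 0.85 with group means removed) and ENSRNOG00000005195 (r = 0.92, and 0.83). The 5 most like Mt1 had r between 0.87 and 0.89, and between 0.86 and 0.92 with group means removed. These genes were chosen for their likeness, so the values are a description, and all points share the 16 libraries and their scaling.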

How the data were processed

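Heart RNA was enriched for polyA and made into strand-specific libraries, read in pairs of 75 bp by the authors. The authors aligned read pairs to Rnor_6.0 with Hisat2 and counted fragments on Ensembl release 81 exons with featureCounts (Subread 1.5.0) at default settings, which use no strand and leave out reads that map to several places. The deposited counts are not normalized, and the deposited TPM values were made by the authors from these counts by gene length. Each library is 1 rat, grouped by its labels.

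Both members were read by identifier from fits on the whole table. Genes were kept by filterByExpr, scaled by TMM and tested with edgeR 4.0.16 (glmQLFit, glmQLFTest; R 4.3.3), with Benjamini-Hochberg adjustment over all genes and an adjusted p under 0.05. Standard errors are the log2 fold change over the square root of F. Log2 CPM used a prior count of 2. The ratio was tested by exact permutation, and correlations by permutation (100000 resamples, or exact under 10 hearts), in Python 3.11.15. The main edgeR fit and the permutation code for a difference in means and for Pearson's r were checked on simulated data. Alternatives were DESeq2 1.42.0, limma 3.58.1 (TPM with a pseudocount of 1 or 0.1, log2), other scaling and filters, fits within rats 30 to 39 or with a covariate for the number block, and fits without each heart. Chosen after seeing the data were the fits within rats 30 to 39 or with the block that also leave out saline rat 37, the fit without rats 37 and 32, the correlations without the 2 hearts farthest from the median of Mt1, and the relations with the TMM factor.

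The members and lists were chosen with earlier results of these data known. The rule for other named genes asked for those most like each member and, with identifiers unnamed, at most 2 that rose. The lists for the metallothionein family, zinc, copper and iron, glucocorticoid receptor, STAT3, Nrf2 and cell type marker genes were written by symbol. RefSeq tables (GRCr8) pair none of the identifiers with symbols, so these were not tested.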

Additional observations from a re-analysis of the deposited data

Results flagged for a closer look

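Looked at were 6 groups of values: Mt1 CPM, Mt2A CPM and Mt2A fragments per Mt1 fragment, in saline and in DOX high hearts. In 2 of them, 1 heart stood well apart from the rest of its group. The mark was a gap above 0.466 of the range in saline and 0.625 in DOX high hearts. For independent, normally distributed values about 0.3 such groups would arise by chance. These values were not on a log scale and the ratio reuses both levels, so that number may not hold here. Saline rat 37 had 12.4 CPM of Mt2A, and its gap to the next saline heart was 0.707 of the range of the group. DOX high rat 38 had 10.7 Mt2A fragments per Mt1 fragment, and its gap to the next DOX high heart was 0.675 of the range. Just below the mark was DOX high rat 33 in Mt1 CPM, with a gap of 0.624 of the range.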

How the results depend on the processing

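Mt2A was higher in DOX high hearts under each of 28 alternatives, with log2 fold changes from 2.27 to 3.44, and passed the threshold in 26. It did not pass within rats 30 to 39 alone (2.27, edgeR adjusted p = 0.189) or with the number block as a covariate (2.28, edgeR adjusted p = 0.136), which both compare the DOX high hearts with 4 saline hearts. Leaving out 1 heart gave 2.38 to 3.01. The fits chosen after seeing the data all left out rat 37, the saline heart with the highest Mt2A level, and gave 3.17 to 3.44. The 26 include the exact permutation test, whose p is of Mt2A alone and not adjusted. Mt1 was higher in DOX high hearts and did not pass under any of its 28 alternatives, at 0.23 to 0.77, and at 0.23 to 0.60 with 1 heart left out. The ratio kept its direction and passed in 18 of 18, at -2.55 to -2.09 with 1 heart left out. The difference in TPM is counted among these but could not depart from that in counts, as the implied gene lengths were the same in every library. Pearson's r of the members did not pass in 20 of 20, at 0.20 to 0.48 with 1 heart left out. Spearman's rho was not part of this count, and within rats 30 to 39 it was 0.76 (unadjusted permutation p = 0.0146).

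The number of genes that differed was 851, and moved to 1574 with DESeq2, 255 and 285 with limma (TPM with a pseudocount of 1 and of 0.1), 0 within rats 30 to 39 (1891 with an unadjusted p under 0.05) and 2 with the number block. The cause was not tested. Of the 851 genes 546 rose and 305 fell with DOX, against 826 and 748 with DESeq2 and 187 and 68 with limma (pseudocount 1). The count ran from 345 to 1762 with 1 heart left out, the highest without saline rat 37 and the lowest without DOX high rat 38. Chosen after seeing the data, it was 1766 without rats 37 and 32, 307 within rats 30 to 39 without rat 37, and 343 with the block and without rat 37. Among saline rats, Mt2A turned from 0.56 to -0.62 without rat 37 and ran up to 0.92 in fits without 1 heart, and Mt1 ran from -0.57 to -0.22.

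No paired analysis was possible because saline and DOX high rats carry different numbers. Alternatives planned for the gene lists were not run, as their symbols could not be matched to the identifiers. Mt1 rests on at most 85 fragments per heart, and its spread between hearts was above that from counting. Both limit the size of change that can be called. The spread of Mt2A was above counting too, and its log2 fold change had the larger standard error (0.41 against 0.28 for Mt1).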
